A study of Mus musculus with 6 samples.

Results

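The nuclear genes of respiratory complexes II to V were examined in mouse lung after cigarette smoke with or without SS-31, a mitochondria-targeted antioxidant peptide. Members were the protein-coding genes whose symbols name subunits or assembly factors of succinate dehydrogenase (Sdha to Sdhd and the Sdhaf genes), the cytochrome bc1 complex (Uqcr genes and Cyc1), cytochrome c (Cycs), cytochrome c oxidase (Cox4 to Cox8, Cox10 to Cox19, Surf1, Sco1 and Sco2) and ATP synthase (Atp5 genes). This rule used names alone and gave 65 of the 55573 genes in the count table. Of the 65, 62 had enough counts to be tested, among 16965 tested genes.

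The 3 SS-31H_CS libraries were made from lungs of mice (C57BL/6, wild type, 9 to 10 weeks old) that were exposed to cigarette smoke and received SS-31 at 5 mg/kg once daily. The 3 CS libraries were made from lungs of mice of the same strain, genotype and age that were exposed to smoke alone, for 4 weeks on 5 days each, with 2 daily sessions of 75 min. The smoke schedule is given for the CS group only, the route of SS-31 and a vehicle are not given, and no smoke-free lungs were analysed here. The labels do not say that each library came from its own mouse, so p-values measure the spread between these libraries, which may be technical. Total counts ran from 15611925 to 17360052 per library. The summed level of 9 lung markers, among them the surfactant gene Sftpc and the club cell gene Scgb1a1, was 41975 to 74199 CPM in SS-31H_CS libraries and 43038 to 49498 CPM in CS libraries. Scgb1a1 alone gave 21245 to 48062 CPM in SS-31H_CS libraries and 18291 to 23014 CPM in CS libraries, while 6 of the 9 markers had negative log2 fold changes and the median of the 9 was -0.27. None of the 9 had an edgeR adjusted p under 0.05, although Cldn5 and Hopx lay below and Nkx2-1 above in SS-31H_CS libraries without overlap. CPM is the read count of a gene put on a common library size, here after TMM scaling, which aligns the bulk of genes between libraries.

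Complex II oxidises succinate and passes its electrons to ubiquinone. Complex III carries electrons from ubiquinol to cytochrome c, complex IV hands them to oxygen, and complex V uses the resulting proton gradient to make ATP. Complexes III, IV and V combine nuclear subunits with a few encoded in mitochondrial DNA, whereas complex II is wholly nuclear. Several complex IV subunits exist as isoforms from separate genes, with forms typical of striated muscle, of testis and, for Cox4i2, of lung vessels and airways. SS-31 is known to bind cardiolipin, the lipid of the inner membrane in which these complexes sit. Bulk lung RNA mixes all cell types, so that fewer cells of a type and less RNA per cell cannot be told apart.

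None of the 62 tested members passed the threshold between SS-31H_CS and CS lungs. In the edgeR quasi-likelihood fit, with p-values adjusted over all 16965 genes, 0 members had an adjusted p under 0.05, where 26 genes of all those tested did (0.153%, with 12 higher at 0.0707% and 14 lower at 0.0825%). DESeq2 and limma voom also called 0 members, where DESeq2 called 939 genes in all (5.74%) and voom 6 (0.0354%). The lowest adjusted p of a member was 0.180 by edgeR and 0.0844 by DESeq2. At an unadjusted p under 0.05, 5 members were higher and 1 was lower in SS-31H_CS lungs, or 9.68% of the members. Among all tested genes that share was 18.2%, of which 9.93% were higher and 8.23% lower. The members' share lay below this background here, but was level with it under library size alone (17.7% against 17.8%). It was also level in the fit on log2(FPKM + 1) (17.7% against 17.1%), with 10 members higher and 1 lower in both. In the fit on log2(FPKM + 1) without a filter it lay above the background (19.0% against 11.6%), with 11 members higher and 1 lower. That fit held 29397 genes and 63 members, against 16230 genes and 62 members with the filter. Its background thus also covers genes of very low level, and the 2 backgrounds are not alike.

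The size of the differences was small for most members. The median log2 fold change, SS-31H_CS over CS, was 0.04, beside 0.01 for all tested genes, and 36 members had positive and 26 negative values. They ran from -0.66 for Uqcrc1 to 0.73 for Atp5s, and 51 of the 62 lay within 0.3 of zero. The 95% interval of the fold change stayed within 2-fold in both directions for 56 members (90.3%, against 70.3% of all tested genes) and within 1.5-fold for 43 (69.4%, against 41.9%). The median standard error (SE) of the log2 fold change was 0.14 for members and 0.18 for all tested genes. Narrow intervals were not particular to the members. Intervals stayed within 2-fold for 98.7% and within 1.5-fold for 80.3% of the tested mitochondrial ribosome genes. For the tested genes of the complex I list these shares were 100% and 77.8%. For most members a doubling or halving thus lay outside the interval.

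**Figure D1:**
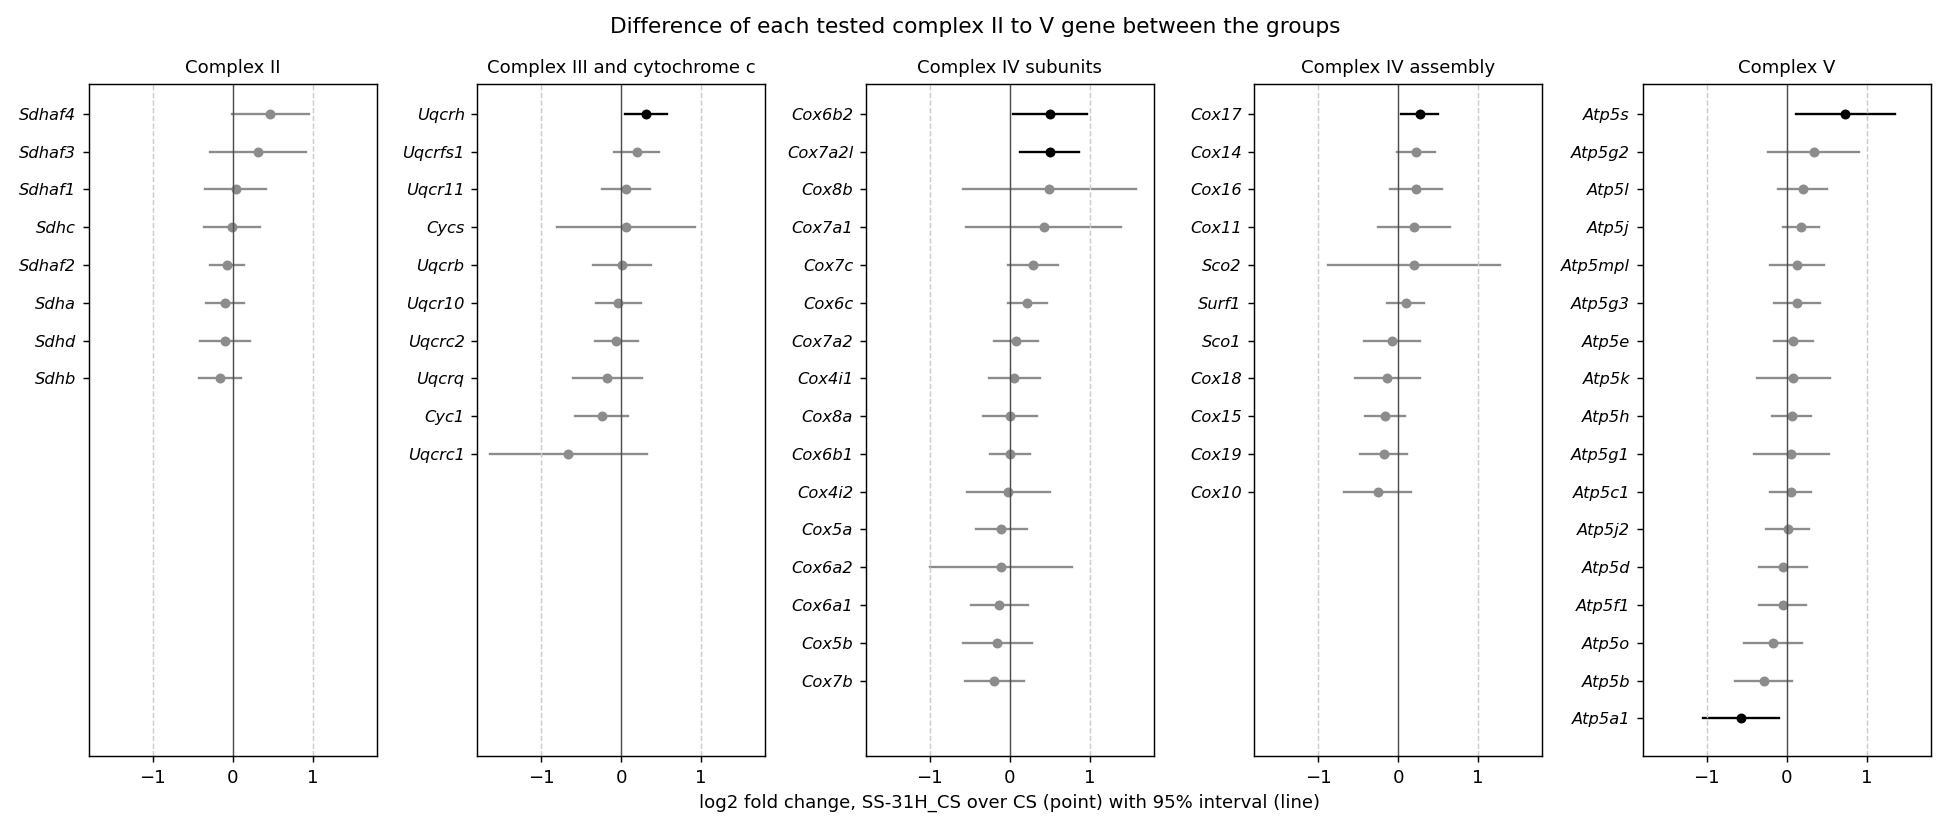
Each point is the log2 fold change of 1 tested gene, SS-31H_CS over CS (n = 3 each), with its 95% interval as a line, in panels by complex; dashed lines mark 2-fold. Black marks the 6 genes with an unadjusted p under 0.05, and most other points sit within 0.3 of zero with intervals that cross it.

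Added together, the 65 members gave 4587, 4099 and 4359 CPM in SS-31H_CS libraries 1, 2 and 3, and 4367, 3974 and 4859 CPM in CS libraries 1, 2 and 3. The means were 4348 ± 244 CPM and 4400 ± 443 CPM (SD, n = 3 each), and the groups overlapped. Within each group libraries stood further apart than the groups did. CS library 3 held the highest value of 26 of the 62 members (41.9%, against 27.5% of all tested genes) and CS library 2 the lowest value of 24 (38.7%, against 10.7%). The median of the members' log2 levels, each centred on its own mean over the 6 libraries, was 0.06, -0.04 and 0.04 in SS-31H_CS libraries and 0.01, -0.15 and 0.12 in CS libraries. The list for complex I, the other large respiratory complex, took all genes whose symbols begin with Nduf. It thus also holds Ndufa4, listed here with further complex II to V factors, and Ndufa4l2, listed with hypoxia targets. The 45 tested genes of this list gave 0.05, -0.05 and 0.04 in SS-31H_CS libraries and 0.02, -0.16 and 0.10 in CS libraries. Without CS library 2 the members' median log2 fold change was -0.05, and without CS library 3 it was 0.10.

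**Figure D2:**
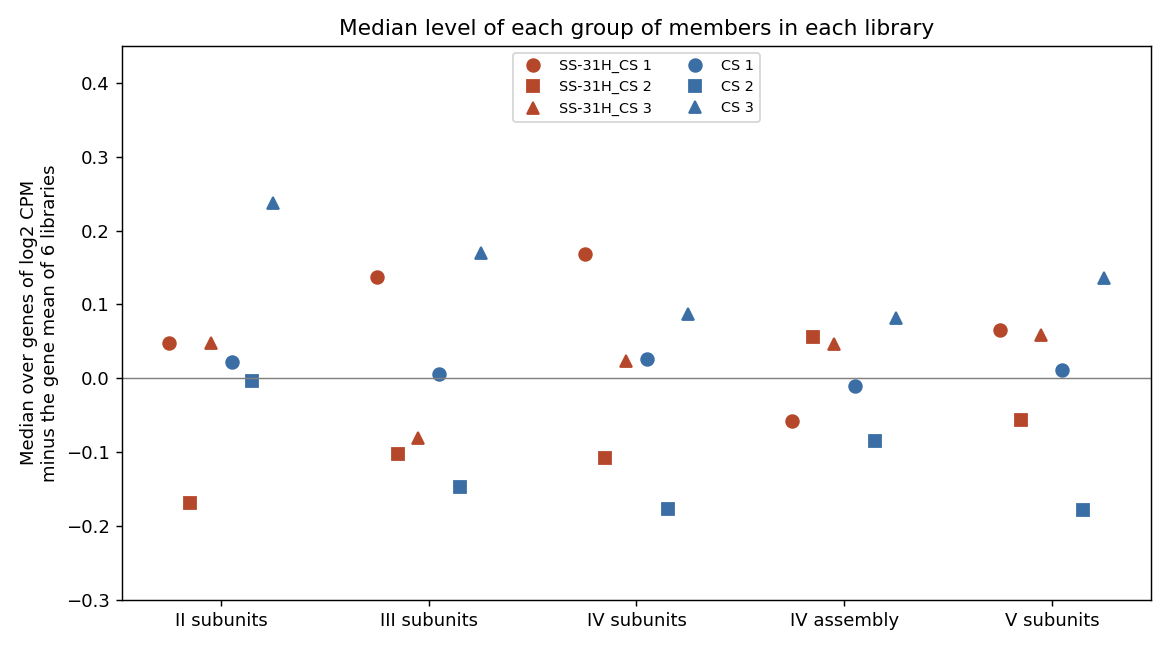
Each symbol is the median over the tested genes of a complex of the log2 CPM in 1 library, minus each gene's mean over the 6 libraries (y axis); SS-31H_CS libraries are red and CS libraries blue. CS library 3 is the highest for subunits of complexes II, III and V, and CS library 2 the lowest for those of complexes III, IV and V; for complex IV subunits SS-31H_CS library 1 is the highest.

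Levels between genes were compared in FPKM, the deposited values per length of gene. The tested members spanned 0.668 to 248 FPKM as means over the 6 libraries, with a median of 28.9 FPKM. Their median rank was the 89.2 percentile of all tested genes, and 28 of the 62 were in the top 10%. The most abundant were the liver-type or ubiquitous complex IV subunits Cox8a, at 253 ± 28.4 FPKM in SS-31H_CS lungs and 243 ± 24.9 FPKM in CS lungs, Cox6a1, at 235 ± 32.7 and 247 ± 28.1 FPKM, and Cox4i1, at 222 ± 28.0 and 206 ± 10.1 FPKM (SD, n = 3 each). Above 100 FPKM stood 7 members, between 10 and 100 FPKM 33, and under 10 FPKM 22. Assembly factors, which act on the complexes without being part of them, were mostly in the last range.

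**Figure D3:**
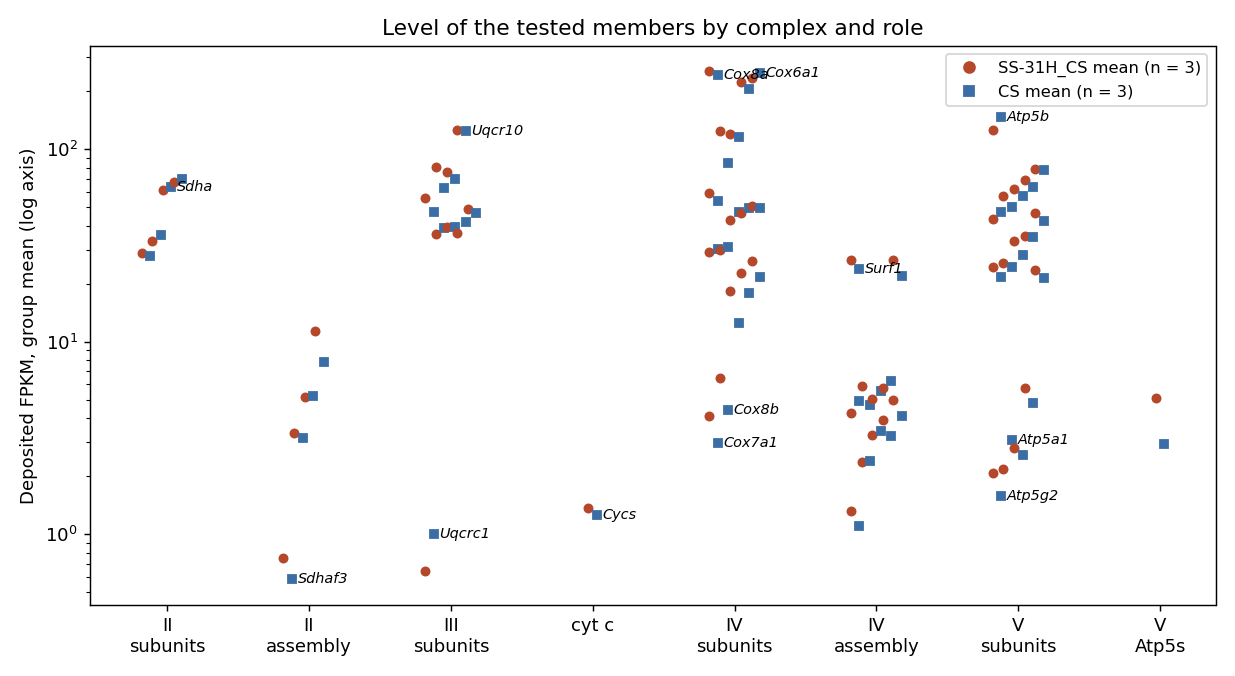
Points are group means of the deposited FPKM (log axis) of each tested gene, SS-31H_CS as red circles and CS as blue squares (n = 3 each), in columns by complex and role. Subunits mostly lie above 10 FPKM and assembly factors below, with Uqcrc1 the lowest subunit of complex III and Atp5a1, Atp5g1 and Atp5g2 the lowest tested subunits of complex V.

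The window around the transcription start of member genes was searched for 4 short motifs known from promoters of respiratory genes. RefSeq promoter sequences on GRCm38.p6, from 250 bases before to 50 after the start, were matched by symbol for 48 of the 64 distinct symbols. The motifs, read on both strands and none containing another, were CGCATGCG for NRF1 (the core of its site), CCGGAAGT for GABP, AAGATGGCG for YY1 and GGGCGG for SP1. NRF1 letters stood in 7 of the 48 windows (14.6%, against 1.91% of 27025 promoters), and GABP letters also in 7 (14.6%, against 4.00%). YY1 letters stood in 2 (4.17%, against 1.49%), and SP1 letters in 24 (50.0%, against 35.9%). A match describes the letters in the window and nothing about binding. The windows of the 3 genes with an unadjusted p under 0.05 that had an entry, and of Cox6a1 as an abundant subunit gene with NRF1 letters, are shown with the matches in capitals. All 4 genes lie on the minus strand, at chr17:83514284-83514583 for Cox7a2l, chr4:116075021-116075320 for Uqcrh, chr7:4753045-4753344 for Cox6b2 and chr5:115348909-115349208 for Cox6a1. The RefSeq start of Cox7a2l lies inside the gene's span in GENCODE.
Cox7a2l: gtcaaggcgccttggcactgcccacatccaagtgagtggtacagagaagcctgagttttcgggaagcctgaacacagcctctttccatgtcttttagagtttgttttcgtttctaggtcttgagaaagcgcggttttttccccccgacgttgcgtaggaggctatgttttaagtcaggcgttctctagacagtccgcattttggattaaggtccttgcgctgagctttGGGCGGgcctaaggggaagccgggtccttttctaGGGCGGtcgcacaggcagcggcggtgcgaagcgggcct
Uqcrh: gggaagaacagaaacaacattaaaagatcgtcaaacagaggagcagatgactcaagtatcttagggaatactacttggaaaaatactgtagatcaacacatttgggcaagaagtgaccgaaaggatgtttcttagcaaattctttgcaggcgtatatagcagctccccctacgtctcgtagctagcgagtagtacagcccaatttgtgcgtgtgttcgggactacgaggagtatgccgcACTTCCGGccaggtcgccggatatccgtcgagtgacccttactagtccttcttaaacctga
Cox6b2: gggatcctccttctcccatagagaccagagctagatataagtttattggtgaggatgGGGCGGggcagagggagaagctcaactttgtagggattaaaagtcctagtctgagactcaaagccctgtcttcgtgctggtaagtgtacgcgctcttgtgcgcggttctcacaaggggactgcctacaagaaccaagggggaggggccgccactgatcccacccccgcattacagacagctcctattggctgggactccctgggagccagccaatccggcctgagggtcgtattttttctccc
Cox6a1: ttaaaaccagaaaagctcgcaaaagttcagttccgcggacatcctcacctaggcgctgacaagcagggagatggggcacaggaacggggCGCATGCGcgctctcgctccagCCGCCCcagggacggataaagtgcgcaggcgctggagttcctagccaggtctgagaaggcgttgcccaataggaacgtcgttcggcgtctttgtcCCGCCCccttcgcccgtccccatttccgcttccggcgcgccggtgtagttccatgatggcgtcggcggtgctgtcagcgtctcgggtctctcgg
The capitals mark SP1 letters in Cox7a2l and Cox6b2, GABP letters on the opposite strand in Uqcrh, and NRF1 followed by opposite-strand SP1 letters in Cox6a1.

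The 4 subunits of complex II had log2 fold changes from -0.16 to -0.01, all negative, with 0 at an unadjusted p under 0.05. Sdha, the flavoprotein that oxidises succinate, had 254, 231 and 264 CPM in SS-31H_CS libraries and 266, 267 and 267 CPM in CS libraries. Every SS-31H_CS value of Sdha was below every CS value, but by little, with a log2 fold change of -0.10 (SE 0.11, edgeR adjusted p = 0.652). Sdhb, the iron-sulfur subunit, had 79.0, 70.8 and 68.8 CPM in SS-31H_CS libraries and 77.4, 76.0 and 91.3 CPM in CS libraries, with overlap and a log2 fold change of -0.16 (SE 0.12). The membrane anchors Sdhc and Sdhd stood at -0.01 and -0.10.

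The 4 assembly factors of complex II had a median log2 fold change of 0.18. Sdhaf4, which helps flavinated Sdha bind Sdhb, had 8.33, 11.4 and 9.41 CPM in SS-31H_CS libraries and 8.20, 7.11 and 5.68 CPM in CS libraries. Its groups did not overlap, and its log2 fold change was 0.47 (SE 0.21, edgeR unadjusted p = 0.0546, adjusted p = 0.287). Sdhaf2, which helps attach the flavin to Sdha, lay below in SS-31H_CS libraries without overlap, at 35.3 to 37.4 CPM against 37.8 to 38.7 CPM, a log2 fold change of -0.07 (SE 0.09). Sdhaf1 and Sdhaf3 overlapped between groups, at 0.04 and 0.32. For Sdhaf1 69.6% and for Sdhaf4 12.7% of exon bases also lie in a gene on the opposite strand, and these counts are uncertain for that reason.

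Complex III and cytochrome c gave 1 member at an unadjusted p under 0.05. Uqcrh, the acidic hinge protein that takes part in the contact between cytochrome c1 and cytochrome c, had 102, 90.4 and 101 CPM in SS-31H_CS libraries and 88.5, 75.4 and 73.0 CPM in CS libraries. All 3 SS-31H_CS values were above all 3 CS values, with a log2 fold change of 0.31 (SE 0.12, edgeR unadjusted p = 0.0280, adjusted p = 0.227). The Rieske iron-sulfur protein Uqcrfs1 had 78.1, 64.8 and 82.2 CPM in SS-31H_CS libraries and 62.5, 63.1 and 71.2 CPM in CS libraries, with overlap (log2 fold change 0.19, SE 0.12). Cyc1, the cytochrome c1 subunit, had 83.3, 73.5 and 77.0 CPM in SS-31H_CS libraries and 88.2, 78.2 and 111 CPM in CS libraries, also with overlap (log2 fold change -0.25, SE 0.14). The 9 nuclear subunits as a group had a median of -0.03, with 4 positive and 5 negative values.

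The low end of complex III was held by Uqcrc1, 1 of its paired core proteins. Uqcrc1 had 4.02, 2.20 and 1.71 CPM in SS-31H_CS libraries and 2.66, 6.36 and 3.52 CPM in CS libraries, a log2 fold change of -0.66 whose 95% interval ran from -1.64 to 0.32. Its partner Uqcrc2 averaged 39.2 ± 1.83 FPKM in SS-31H_CS lungs and 39.3 ± 3.92 FPKM in CS lungs, where Uqcrc1 averaged 0.647 ± 0.290 and 0.997 ± 0.488 FPKM (SD, n = 3 each). Per length Uqcrc2 was thus 47.7-fold above Uqcrc1, although the proteins are present in equal numbers in the complex. Cycs, the electron carrier itself, was likewise low, at 2.90, 6.91 and 3.88 CPM in SS-31H_CS libraries and 3.78, 3.32 and 6.05 CPM in CS libraries. In annotated transcripts of other genes, 26.1% of the 50-base words of Cycs recur, but none of those of Uqcrc1. How reads that match several places were counted is not given in the sources used here, and its part in these low levels was not tested.

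Complex IV held the lowest p of all members. The 16 tested subunits had a median log2 fold change of 0.03, with 10 positive and 6 negative. Cox4i1, the ubiquitous form of the regulatory subunit 4, had 388, 288 and 342 CPM in SS-31H_CS libraries and 335, 300 and 344 CPM in CS libraries, with overlap (log2 fold change 0.05, SE 0.14). Cox5a, another regulatory subunit, had 61.1, 53.6 and 66.1 CPM in SS-31H_CS libraries and 61.7, 56.6 and 76.0 CPM in CS libraries, again with overlap (log2 fold change -0.10, SE 0.14). The 2 subunit genes with an unadjusted p under 0.05, Cox7a2l and Cox6b2, were both higher in SS-31H_CS lungs.

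Cox7a2l, a relative of Cox7a2 that joins complex III to complex IV in supercomplexes and of which C57BL/6 mice carry a shortened form, had 184, 174 and 185 CPM in SS-31H_CS libraries and 150, 136 and 97.3 CPM in CS libraries. The groups did not overlap, and CS library 3 was the lowest. The log2 fold change was 0.50 (SE 0.16, edgeR unadjusted p = 0.0142, adjusted p = 0.180), and 0.33 without CS library 3. Cox7a2l spans chr17:83501918-83517330 on the minus strand (GRCm38), and 13.8% of its 50-base words also occur in a processed pseudogene, Gm6969, so some of its reads may be counted there or dropped.

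Cox6b2, the form of subunit 6b known from testis and sperm, had 19.2, 21.1 and 19.3 CPM in SS-31H_CS libraries and 17.4, 14.6 and 10.0 CPM in CS libraries. Again all SS-31H_CS values were above all CS values and CS library 3 was the lowest. The log2 fold change was 0.50 (SE 0.20, edgeR unadjusted p = 0.0376, adjusted p = 0.249), and 0.31 without CS library 3. Its ubiquitous counterpart Cox6b1 had a log2 fold change of 0.00 (95% interval -0.25 to 0.25). Cox6b2 made up 13.3% ± 1.67 of the summed FPKM of Cox6b1 and Cox6b2 in SS-31H_CS lungs and 9.69% ± 2.44 in CS lungs (SD, n = 3 each). Ciliated cells, which like sperm carry a motile axoneme, had higher markers in the same libraries: 12 of 13 tested markers had an unadjusted p under 0.05 and a positive sign, 0 an adjusted p under 0.05, and their summed level was 1186 to 1651 CPM in SS-31H_CS libraries and 1011 to 1051 CPM in CS libraries. Among all tested genes 9.93% were higher at that unadjusted threshold. Tubb4b, the marker with a negative sign, held a large part of the sum, at 361 to 468 CPM in SS-31H_CS libraries and 432 to 644 CPM in CS libraries. It was highest in CS library 3, whereas Foxj1 was lowest there, at 52.6 CPM. The sum was highest in SS-31H_CS library 3, where Cox6b2 was not. The part of ciliated cells in the values of Cox6b2 or of any other member was not tested.

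Other complex IV subunits above in all SS-31H_CS libraries were Cox7c, at 23.9 to 28.0 CPM against 18.0 to 22.8 CPM in CS libraries, and Cox6c, at 86.8 to 97.4 CPM against 73.1 to 85.8 CPM. Their log2 fold changes were 0.29 (SE 0.14) and 0.22 (SE 0.11), with unadjusted p above 0.05. Pseudogenes share 22.1% of the 50-base words of Cox7c, and its counts are uncertain for that reason. Across all complexes, 15 members had groups that did not overlap, 11 above and 4 below in SS-31H_CS lungs. This was 24.2% of the members, beside 26.1% of all tested genes (13.6% above and 12.4% below).

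**Figure D4:**
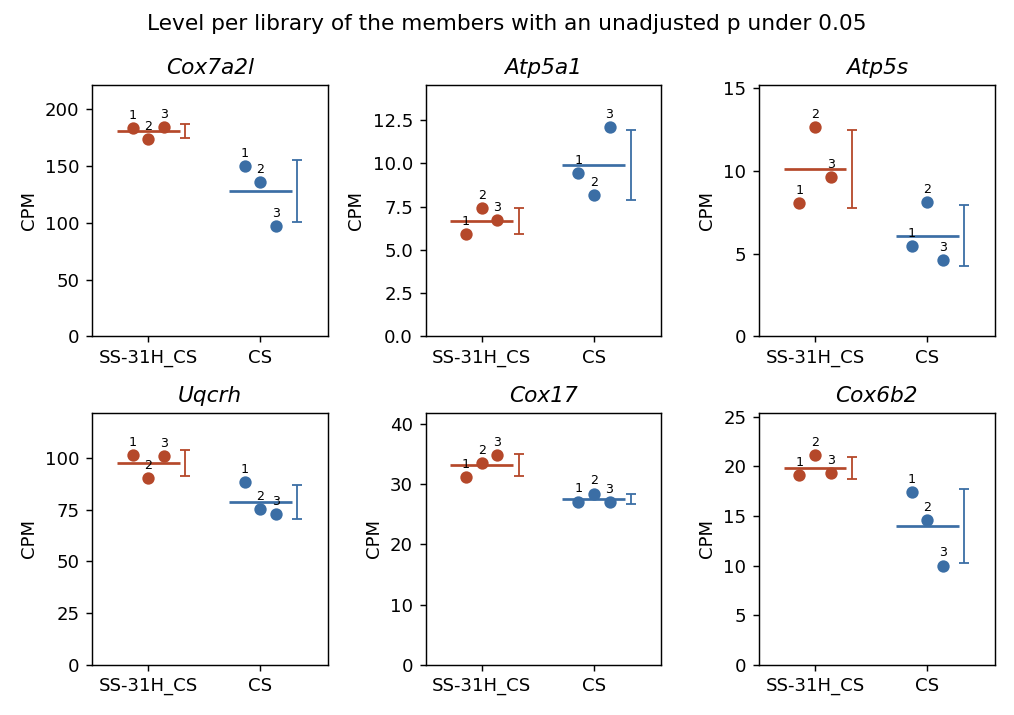
CPM in each library (numbered points), group mean (horizontal line) and SD (bracket) of the 6 genes with an unadjusted p under 0.05, SS-31H_CS left and CS right (n = 3 each). Groups are apart in every panel but that of Atp5s, and CS library 3 is the CS value farthest from the SS-31H_CS points for 5 of the 6 genes; for Cox17 CS libraries 1 and 3 are level.

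The tissue isoforms of complex IV were read as pairs. Cox4i2, a form that is known to respond to low oxygen and that is expressed in lung smooth muscle and pericytes, had 45.8, 38.4 and 33.9 CPM in SS-31H_CS libraries and 53.2, 38.5 and 27.7 CPM in CS libraries. The groups overlapped widely, with a log2 fold change of -0.02 (95% interval -0.54 to 0.51). Per length it made up 18.7% ± 2.24 of Cox4 transcripts in SS-31H_CS lungs and 19.2% ± 5.13 in CS lungs (SD, n = 3 each). Summed markers of pericytes and smooth muscle were 807 to 1058 CPM in SS-31H_CS libraries and 909 to 972 CPM in CS libraries. Single markers followed different patterns, with 5 positive and 5 negative log2 fold changes. Notch3 and Pdgfrb fell from library 1 to library 3 in both groups, as Cox4i2 did, whereas Acta2 was highest in library 3 of both. Abcc9, with the lowest p of the 10, was above in SS-31H_CS libraries without overlap (log2 fold change 1.38, edgeR adjusted p = 0.0916). Their part in the values of Cox4i2 was not tested.

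Forms typical of striated muscle varied between libraries more than between groups. Cox8b had 3.90, 1.65 and 1.35 CPM in SS-31H_CS libraries and 1.89, 1.03 and 1.98 CPM in CS libraries. Cox7a1 had 3.37, 1.41 and 1.76 CPM in SS-31H_CS libraries and 2.18, 1.09 and 1.61 CPM in CS libraries. Both were highest in SS-31H_CS library 1, and their log2 fold changes of 0.50 (SE 0.47) and 0.42 (SE 0.42) became -0.13 and -0.04 without that library. Cox6a2 had 31.2, 17.8 and 11.1 CPM in SS-31H_CS libraries and 21.8, 13.7 and 29.3 CPM in CS libraries, with a log2 fold change of -0.11 (SE 0.39).

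Cardiac muscle, which surrounds the large pulmonary veins of the mouse, is 1 tissue that uses these forms. The summed level of 20 cardiac markers was 1130, 502 and 425 CPM in SS-31H_CS libraries and 845, 284 and 438 CPM in CS libraries, and Myh6, the atrial myosin, ran from 112 to 403 CPM in SS-31H_CS libraries and from 85.8 to 292 CPM in CS libraries. The sum was highest in SS-31H_CS library 1 and lowest in CS library 2, where Cox7a1 and Cox8b also had their highest and lowest values. Of the 19 tested cardiac markers 18 had positive log2 fold changes, with a median of 0.44. None of them had an unadjusted p under 0.05 (edgeR), and all overlapped between groups. The 10 skeletal muscle markers summed to 11.6 to 13.3 CPM in SS-31H_CS libraries and 11.7 to 22.2 CPM in CS libraries, and 5 of them were tested. The myosin Myh4 was at 0 in all 6 libraries and the actin Acta1 at or under 0.472 CPM, whereas Mybpc2 reached 14.6 CPM in CS library 3. The 8 markers of brown fat, another tissue rich in Cox7a1 and Cox8b, summed to 19.2 to 35.8 CPM in SS-31H_CS libraries and 17.1 to 24.4 CPM in CS libraries. Ucp1 was at or under 0.294 CPM and Elovl3 at 0, but all 5 tested markers had positive log2 fold changes, with a median of 0.74. Cidea, at 0.887 to 1.88 CPM against 0.432 to 0.649 CPM, and Slc27a2, at 2.19 to 4.64 CPM against 1.06 to 1.89 CPM, were above in SS-31H_CS libraries without overlap (edgeR adjusted p = 0.157 and 0.180), as was Ppargc1a (adjusted p = 0.485). The part of muscle or fat in the values of the isoforms was not tested.

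**Figure D5:**
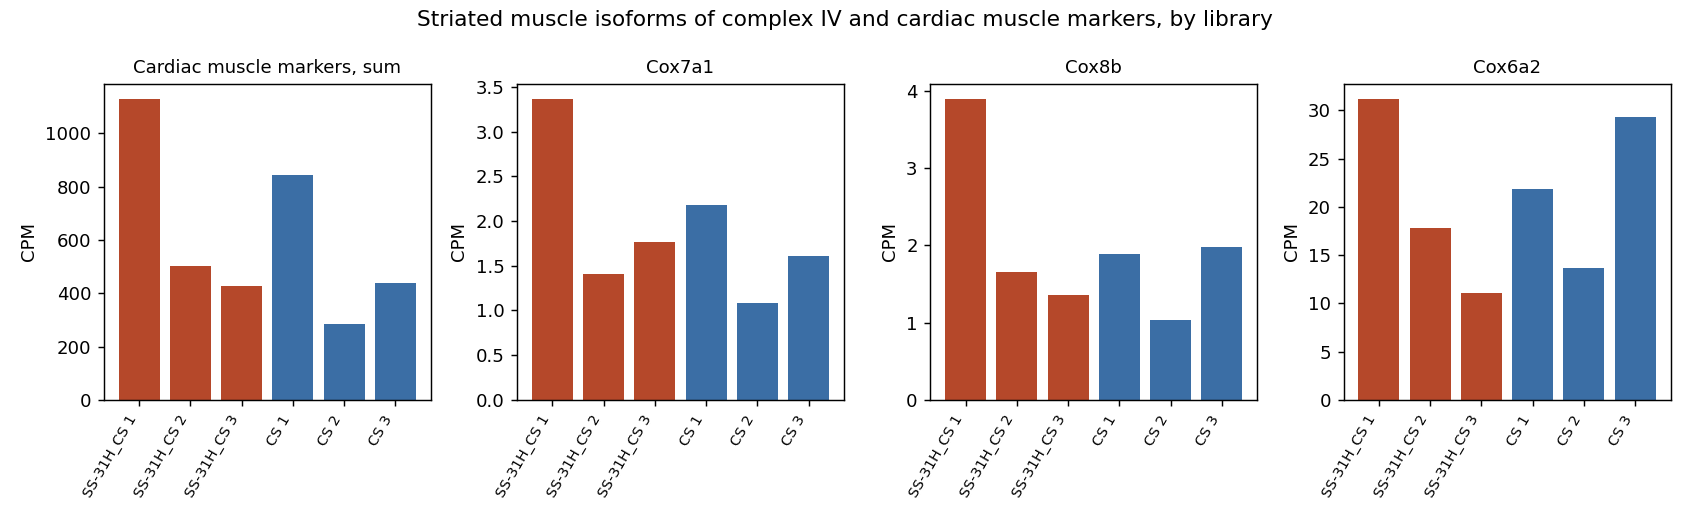
Bars give CPM per library, SS-31H_CS in red and CS in blue, for the sum of 20 cardiac muscle markers and for the muscle forms Cox7a1, Cox8b and Cox6a2. SS-31H_CS library 1 is the highest and CS library 2 the lowest in the marker, Cox7a1 and Cox8b panels, while Cox6a2 is nearly as high in CS library 3 as in SS-31H_CS library 1.

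The more widely expressed partners of these forms differed little between groups. Cox6a1 had 191, 141 and 155 CPM in SS-31H_CS libraries and 172, 155 and 205 CPM in CS libraries (log2 fold change -0.13, SE 0.15). Cox7a2 had 54.7, 51.4 and 58.0 CPM in SS-31H_CS libraries and 53.1, 45.0 and 57.8 CPM in CS libraries (log2 fold change 0.07, SE 0.12). Cox8a, at 171, 131 and 161 CPM against 151, 135 and 176 CPM, and Cox6b1, at 90.9, 75.8 and 83.2 CPM against 85.5, 78.1 and 86.1 CPM, had log2 fold changes of 0.00 (SE 0.15 and 0.11). All 4 overlapped between groups. Cox7b, whose paralog is Cox7b2, had a log2 fold change of -0.19 (SE 0.16). Muscle forms made up 11.0% ± 3.81 of Cox6a, 6.50% ± 2.87 of Cox7a and 2.44% ± 1.21 of Cox8 transcripts per length in SS-31H_CS lungs, and 10.9% ± 2.32, 5.18% ± 1.40 and 1.77% ± 0.423 in CS lungs (SD, n = 3 each).

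The 3 untested members were 2 complex IV isoforms and a second gene model of Atp5o. Cox8c, a form known from testis, had 0 counts in every library, which allows up to 3 counts or 0.185 CPM in any of them. Cox7b2 had 1 count in SS-31H_CS library 3 and 1 in CS library 2 and none elsewhere. The second Atp5o model, whose exons all lie in those of the tested Atp5o or of the neighbouring gene Donson, had 0 counts throughout. Such limits cover counting error only.

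Of the 11 complex IV assembly factors, Cox17 alone had an unadjusted p under 0.05. Cox17, a copper chaperone that hands copper to Sco1 and Cox11, had 31.2, 33.5 and 34.9 CPM in SS-31H_CS libraries and 27.1, 28.5 and 27.0 CPM in CS libraries. The groups did not overlap, and the log2 fold change was 0.27 (SE 0.10, edgeR unadjusted p = 0.0294, adjusted p = 0.231). Cox14 and Cox16 were also above in all SS-31H_CS libraries, with log2 fold changes of 0.22 each (SE 0.10 and 0.14), and Cox15, a heme a synthase, was below in all, at -0.17 (SE 0.11).

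The other copper and heme factors overlapped between groups. Sco1 and Cox11, which place copper in the enzyme, had log2 fold changes of -0.07 (SE 0.15) and 0.20 (SE 0.20), and Cox10, which makes heme o, -0.26 (SE 0.18). Surf1, whose loss causes Leigh syndrome in humans, had 41.9, 46.6 and 47.7 CPM in SS-31H_CS libraries and 42.1, 44.6 and 41.1 CPM in CS libraries (log2 fold change 0.09, SE 0.10). For Sco2, 91.8% of exon bases also belong to another annotated gene, as do 56.8% for Cox16 and 48.3% for Cox11. Overlaps lie on the opposite strand for Cox11, on the same strand for Cox16 and on both for Sco2. How reads in such overlaps were assigned is not given in the sources used here, and these counts are uncertain.

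Complex V gave the only member below at an unadjusted p under 0.05. Atp5a1, the alpha subunit of the catalytic head, had 5.91, 7.39 and 6.70 CPM in SS-31H_CS libraries and 9.44, 8.14 and 12.1 CPM in CS libraries. The groups did not overlap, and the log2 fold change was -0.57 (SE 0.21, edgeR unadjusted p = 0.0249, adjusted p = 0.217), or -0.40 without CS library 3. Atp5b, the beta subunit that carries the catalytic sites, had 557, 492 and 512 CPM in SS-31H_CS libraries and 586, 545 and 772 CPM in CS libraries, with overlap. It had a log2 fold change of -0.29 (SE 0.16, edgeR adjusted p = 0.369), and -0.12 without CS library 3.

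The 2 head subunits, present in equal numbers in the enzyme, stood far apart in level. Atp5a1 averaged 2.17 ± 0.291 FPKM in SS-31H_CS lungs and 3.08 ± 0.539 FPKM in CS lungs, and Atp5b 125 ± 5.93 and 146 ± 23.5 FPKM (SD, n = 3 each), or 51.6-fold more over all 6 libraries. None of the 50-base words of Atp5a1 recurs in annotated transcripts of other genes. A like low level was seen for Gapdh, a glycolytic gene with many processed pseudogenes that share 24.7% of its words, at 117 to 138 counts in SS-31H_CS libraries and 102 to 195 counts in CS libraries. The cause of these low levels was not tested.

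Most of the remaining subunits of complex V were close to even. Atp5j, the coupling factor in the stalk, had 100, 104 and 103 CPM in SS-31H_CS libraries and 92.9, 84.5 and 93.2 CPM in CS libraries, without overlap (log2 fold change 0.18, SE 0.10, unadjusted p = 0.0991 in edgeR's test). The 3 genes of the c subunit, which forms the rotor ring, had log2 fold changes of 0.06 for Atp5g1, 0.34 for Atp5g2 and 0.13 for Atp5g3 (SE 0.21, 0.25 and 0.13). Atp5g3 was the main source of its transcripts per length, at 57.2 ± 4.40 FPKM in SS-31H_CS lungs and 50.2 ± 4.87 FPKM in CS lungs, against 2.80 ± 0.405 and 2.58 ± 0.468 FPKM for Atp5g1 (SD, n = 3 each). Pseudogenes share 36.7% of the words of Atp5g2, whose low level of 2.07 ± 0.295 and 1.57 ± 0.225 FPKM is uncertain for that reason. Atp5g2 lay above in SS-31H_CS libraries without overlap, at 2.96 to 3.94 CPM against 2.24 to 2.92 CPM. Over the 16 tested subunits the median log2 fold change was 0.06, with 11 positive and 5 negative.

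Atp5s, known as coupling factor B and counted here with assembly factors, had the largest positive difference among members. It had 8.04, 12.7 and 9.65 CPM in SS-31H_CS libraries and 5.43, 8.14 and 4.63 CPM in CS libraries. SS-31H_CS library 1 lay just under CS library 2, so that the groups overlapped. The log2 fold change was 0.73 (SE 0.27, edgeR unadjusted p = 0.0254, adjusted p = 0.220), with a 95% interval from 0.12 to 1.35.

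The mitochondrial genome supplies the remaining subunits of complexes III, IV and V. Of its 13 protein genes 11 were tested, with 0 at an unadjusted or an adjusted p under 0.05 (edgeR). All 11 had positive log2 fold changes, with a median of 0.28, and their summed level was 14284, 15063 and 21391 CPM in SS-31H_CS libraries and 14164, 12846 and 14077 CPM in CS libraries. SS-31H_CS library 3 stood above the other 5. The complex III subunit mt-Cytb had 2586, 2560 and 3859 CPM in SS-31H_CS libraries and 2490, 2277 and 2657 CPM in CS libraries (log2 fold change 0.28, SE 0.19). The catalytic complex IV subunit mt-Co1 had 6897, 7070 and 9714 CPM in SS-31H_CS libraries and 6456, 6012 and 6374 CPM in CS libraries, without overlap (log2 fold change 0.33, SE 0.18). Its partners mt-Co2 and mt-Co3 had only 11.4 to 16.0 and 4.85 to 6.88 CPM in SS-31H_CS libraries and 10.5 to 11.9 and 4.82 to 5.79 CPM in CS libraries. These 3 subunits form the core of 1 enzyme, and the cause of their unequal counts was not tested.

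Further genes that build or regulate complexes II to V, listed apart from the members, gave a like picture. Of 34 such factors 32 were tested, 0 passed at an adjusted p under 0.05 (edgeR), and 2 were higher and 1 lower at an unadjusted p under 0.05. This was 9.4% of the tested factors, against 18.2% of all tested genes. Atpif1, the protein that inhibits ATP hydrolysis by complex V, had 57.8, 55.9 and 62.8 CPM in SS-31H_CS libraries and 42.5, 44.5 and 44.7 CPM in CS libraries. Its groups were well apart, with a log2 fold change of 0.42 (SE 0.10, edgeR adjusted p = 0.107), and it was chosen as the factor with the lowest p. Higd2a, a complex IV assembly factor, was also above without overlap, at 41.7 to 44.4 CPM against 32.2 to 36.7 CPM (log2 fold change 0.31, adjusted p = 0.188 by edgeR). Its relative Higd1a was below without overlap, at 31.6 to 34.4 CPM against 38.3 to 45.2 CPM (log2 fold change -0.31, adjusted p = 0.207 by edgeR).

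Of 13 regulators of mitochondrial biogenesis, 0 passed at an adjusted p under 0.05 (edgeR). At an unadjusted p under 0.05, 1 was lower (7.69%, against 8.23% of all tested genes). That one, Pprc1, a coactivator related to PGC-1alpha, had 27.7, 32.4 and 38.6 CPM in SS-31H_CS libraries and 42.1, 48.9 and 59.7 CPM in CS libraries (log2 fold change -0.61, SE 0.17, edgeR adjusted p = 0.141). Ppargc1a, the gene of PGC-1alpha itself, had 3.43, 3.06 and 4.41 CPM in SS-31H_CS libraries and 2.95, 2.69 and 2.96 CPM in CS libraries, without overlap (log2 fold change 0.34, SE 0.24). The factors whose motifs were searched had log2 fold changes of -0.14 for Nrf1 (SE 0.10), 0.07 for Gabpa (SE 0.13) and -0.05 for Yy1 (SE 0.11). Tfam, which packages and transcribes mitochondrial DNA, stood at 0.13 (SE 0.11).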

How the data were processed

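Lung total RNA of 3 SS-31H_CS and 3 CS libraries was sequenced. Raw counts of reads, 1 column a library and 1 row an Ensembl gene, were deposited by the authors. A second deposited table gives FPKM. Per the submitters' processing notes, cutadapt 1.9.1, HISAT2 2.0.1, HTSeq 0.6.1 and GRCm38 were used, while the annotation release, strand setting and treatment of multiple matches are not given in the sources used here. Over 3310 genes the deposited FPKM followed count and library total to within 0.325%, so FPKM holds no further scaling between libraries.

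Symbols and coordinates came from GENCODE M21 (GRCm38), which held 55480 of the 55573 identifiers. Counts were tested for SS-31H_CS over CS by edgeR 4.0.16 (R 4.3.3) with TMM scaling, its low-count filter (minimum count 10, minimum total 15), the quasi-likelihood test, two-sided, and Benjamini-Hochberg adjustment over 16965 genes. A count of 3 corresponded to 0.172 to 0.185 CPM. The test was checked on simulated data. Shared sequence was counted as words of 50 bases also found in GENCODE M21 transcripts of other genes. Promoters came from RefSeq.

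The members and all lists (complex I, the mitochondrial ribosome, other complex factors, biogenesis regulators, hypoxia targets and markers of lung, ciliated, cardiac, skeletal muscle, pericyte, adipocyte and brown fat cells) were chosen with earlier results of these data known. Named members are the pair with the lowest p in each complex and among assembly factors, 10 core subunits and the tissue isoforms, and others named were chosen after their values were seen. Alternatives were RLE scaling, library size alone, other filters, DESeq2 1.42.0, limma 3.58.1 (voom on counts, and trend on log2 FPKM plus 1 or 0.1), robust dispersion, a replicate block and leaving out each library. Leaving out library 3 of both groups, and leaving out members that share at least 10% of their words, were added after seeing the data.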

Additional observations from a re-analysis of the deposited data

How the results depend on the processing

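Under each of the 19 alternatives 0 members passed at an adjusted p under 0.05, in either direction, and 3 to 12 had an unadjusted p under 0.05. Over all tested genes the same threshold called 0 to 939 genes, with 1 to 15 when 1 library was left out, 648 without a low-count filter and 939 by DESeq2, against 26. The members' median log2 fold change was 0.04 and ran from -0.05 to 0.10 with 1 library left out, was -0.04 without SS-31H_CS library 1, and was 0.019 to 0.099 under the other scalings, filters and tests. With members that share sequence left out, it was 0.0091. The replicate number as a block gave a median of 0.03 and called 0 members and 0 genes in all. Deviations of libraries of the same number had correlations of 0.0072, 0.036 and -0.057, within the range for unlike numbers (-0.10 to 0.071). With 3 libraries a group these values cannot show whether the numbers pair libraries, and the labels name no pairing.

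Of 28 named members that were tested, 15 kept 1 sign of the log2 fold change throughout, among them the 6 with an unadjusted p under 0.05. For all of these 6 but Atp5s the groups did not overlap. Leaving out a library could thus hardly turn their sign, and their kept sign is no separate check. The other 13 of the 28 did not keep 1 sign. With 1 library left out, their ranges were -0.10 to 0.18 for Atp5g1, -0.059 to 0.16 for Cox4i1, -0.22 to 0.25 for Cox4i2, -0.20 to 0.023 for Cox5a, -0.27 to -0.018 for Cox6a1, -0.59 to 0.18 for Cox6a2, -0.073 to 0.064 for Cox6b1, -0.042 to 0.69 for Cox7a1, -0.023 to 0.15 for Cox7a2, -0.32 to -0.031 for Cox7b, -0.084 to 0.11 for Cox8a, -0.13 to 0.76 for Cox8b and -0.37 to 0.35 for Cycs. Cox4i2, at -0.015, was 0.035 with library size alone, 0.0222 by voom, 0.0225 with the replicate block, and 0.078, 0.080 and 0.078 in the 3 fits on FPKM. Cox6b1, at 0.0012, was -0.012 with RLE scaling, -0.0085 without a filter, -0.017 by DESeq2, -0.0014 by voom and -0.0013 with the block. Cox8a, at 0.0040, was -0.0097 with RLE scaling, -0.0059 without a filter and -0.015 by DESeq2. Without library 3 of both groups Cox6a1 was 0.017, Cox6a2 0.46 and Cox7b 0.048. The cause was not tested. With 3 libraries a group, the 95% interval stayed within 1.5-fold for 43 of the 62 tested members (69.4%). For the others it reached past 1.5-fold, and smaller differences lie inside the intervals of many members.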

Other observations

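Genes known to respond to low oxygen, listed because Cox4i2 is 1 of them in other settings, were mixed. Of 10 tested, 0 passed at an adjusted p under 0.05 (edgeR), and 3 were lower in SS-31H_CS lungs at an unadjusted p under 0.05. Among all tested genes 8.23% were lower at that threshold. Adm, the vasodilator adrenomedullin, had 4.55, 5.44 and 3.29 CPM in SS-31H_CS libraries and 10.3, 9.28 and 32.8 CPM in CS libraries (log2 fold change -1.98, SE 0.50, edgeR adjusted p = 0.128). Slc2a1, the glucose transporter GLUT1, had 46.1, 43.0 and 46.6 CPM in SS-31H_CS libraries and 56.1, 55.2 and 70.7 CPM in CS libraries (log2 fold change -0.42, SE 0.12, edgeR adjusted p = 0.153). Pfkfb3, a regulator of glycolysis, was likewise below without overlap, at 89.0 to 106 CPM against 118 to 138 CPM. Vegfa, with a log2 fold change of 0.04 (SE 0.12), and Ndufa4l2, with 0.17 (SE 0.23), overlapped between groups.

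The mitochondrial ribosome, which translates the mitochondrial subunits of complexes III, IV and V, gave 0 of 76 tested genes at an adjusted p under 0.05 (edgeR), 5 higher and 1 lower at an unadjusted p under 0.05, and a median log2 fold change of -0.03. The complex I list gave 0 of 45, with 2 higher and 0 lower at an unadjusted p under 0.05 and a median of 0.05. Among marker lists, 0 genes passed at an adjusted p under 0.05 (edgeR). At an unadjusted p under 0.05, 0 of 19 cardiac, 1 of 5 skeletal muscle, 2 of 5 brown fat, 0 of 7 adipocyte, 1 of 10 pericyte or smooth muscle and 3 of 9 lung markers were found, and 12 of 13 ciliated cell markers. Among all tested genes the share at this threshold was 18.2% (9.93% higher and 8.23% lower). It was 7.89% for the mitochondrial ribosome and 4.44% for the complex I list. Foxj1, the master regulator of motile cilia, had 110, 141 and 199 CPM in SS-31H_CS libraries and 61.0, 67.9 and 52.6 CPM in CS libraries (log2 fold change 1.31, edgeR adjusted p = 0.0728).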
